A study of Homo sapiens with 8 samples.

Results

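The miR-130/miR-301/miR-454 family is a group of mature miRNAs cut from hairpins on human chromosomes 11, 17 and 22. Its members were taken by name: hsa-miR-130a-3p, hsa-miR-130b-3p, hsa-miR-301a-3p, hsa-miR-454-3p, hsa-miR-130b-5p, hsa-miR-301a-5p and hsa-miR-454-5p, written without hsa, the prefix for human, from here on. These are 7 of the 2588 mature miRNA names in the table, each with 1 entry. All 7 had reads in all 8 libraries and passed the filter on low values that left 528 miRNAs for testing. The libraries came from untreated parental cells of 4 human tumor lines, harvested 48 h after seeding, with 2 replicate libraries per line. ES-2 is an ovarian cancer line, MV-3 a melanoma line, Huh-7 a line of hepatocellular carcinoma and A-549 a line of lung adenocarcinoma. Each tumor type was thus represented by 1 line, and differences between lines cannot be told apart from differences between tumor types. No line served as a control for another.

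A miRNA guides an Argonaute protein to messenger RNAs that pair with its seed, the stretch near the 5′ end, and lowers their stability or translation. Mature miRNAs with the same seed can therefore bind the same sites and are grouped as a family. Each hairpin gives rise to a 3p and a 5p strand, of which 1 is usually loaded more often and the other mostly degraded. In this family the shared seed lies on the 3p strand, and the 5p strands carry seeds of their own. The family is known from studies of proliferation and invasion in tumors, and PPARG is among its described targets.

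The mature sequences show what the 3p members have in common and where the 5p members differ. Sequences were taken from RefSeq on GRCh38.p14, which held 6 of the 7 members; miR-130a-3p was not among them and is given by name. Bases 2 to 8, the seed, are in capitals, and all sequences run 5′ to 3′.
miR-130b-3p: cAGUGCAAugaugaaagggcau
miR-301a-3p: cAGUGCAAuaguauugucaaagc
miR-454-3p: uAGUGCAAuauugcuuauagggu
miR-130b-5p: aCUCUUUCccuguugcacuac
miR-301a-5p: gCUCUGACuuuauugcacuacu
miR-454-5p: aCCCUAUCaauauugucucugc
The 3 printed 3p strands share the seed AGUGCAA, and the 3 5p strands carry 3 different seeds. Among 2281 names of the table with a RefSeq sequence, 6 names (0.263%) had this seed. Besides the 3 members these were miR-301b-3p, miR-3666 and miR-4295. The reverse complement of the seed, UUGCACU, stood at bases 13 to 19 of both miR-130b-5p and miR-301a-5p, as opposite strands of a hairpin pair with each other, whereas miR-454-5p had no such run. It was found in 8 of the 2281 sequences (0.351%). Between miR-130b-3p and miR-301a-3p the first 9 bases were identical. The nearest relative outside the members is the chromosome 22 copy of miR-301.
miR-301b-3p: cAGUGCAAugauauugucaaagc
It matched miR-301a-3p at 21 of 23 bases, with the substitutions A10G and G11A, counted from the 5′ end with the base of miR-301a-3p first.

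The hairpins lie in 3 places of GRCh38. MIR130A is on chromosome 11 at chr11:57641198-57641286, plus strand, in an intron of the non-coding gene MIR130AHG. MIR130B is on chromosome 22 at chr22:21653304-21653385, plus strand, in an exon of a long non-coding gene without a symbol. MIR301B lies 245 bases upstream of it, in an intron of the same gene. MIR301A at chr17:59151136-59151221 and MIR454 at chr17:59137758-59137872 are both on the minus strand of chromosome 17, with 13263 bases between them. Both lie in introns of SKA2 on the coding strand, a gene for a protein that links kinetochores to spindle microtubules.

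The depth of a library was between 1173902 and 2670030 miRNA reads. The deposited values are whole reads scaled by a size factor of each library, the trimmed mean of M values (TMM), and are called normalised CPM here. The factors differed up to 2.87-fold between libraries, so levels or spans of the members are also given as library CPM. There, every library has the same total of miRNA reads and no such factor is applied. A count of 3 reads, the limit of detection used here, corresponded to 0.845 to 2.45 normalised CPM. Reads of different mature sequences are not calibrated against each other, and reads are not molecules. The limit of 3 reads and the binomial tests cover counting error only, whereas the intervals from limma rest on the spread between libraries. In bulk RNA, a lower level per cell and fewer expressing cells cannot be told apart. As a check of origin, miR-122-5p, the abundant miRNA of hepatocytes, ranked 2nd in Huh-7 with 83721 ± 3531 normalised CPM (SD, n = 2) and stayed at 5.33 to 32.8 in the other lines. For MV-3 the check was negative, since miR-211-5p, a miRNA of the melanocyte lineage, had 0 reads in both libraries. Of the 5 miRNAs of the epithelial miR-200 group, miR-200a-3p, miR-200b-3p and miR-429 had 104 to 1853 normalised CPM in Huh-7 and A-549 and at most 16.99 in the other lines. The remaining members of the group did not separate the lines in this way: miR-200c-3p had 120 ± 12.6 normalised CPM in Huh-7, 79.9 ± 33.8 in A-549, 44.5 ± 1.89 in ES-2 and 18.6 ± 8.56 in MV-3, and miR-141-3p was highest in ES-2 with 5.25 ± 0.559, against at most 1.08 elsewhere. Of 4 miRNAs typical of blood cells, miR-142-3p was at 357 ± 27.5 normalised CPM in ES-2 and had 0 reads in the other 3 lines. miR-223-3p and miR-451a averaged at most 0.818 in every line, and miR-486-5p had 783 ± 6.18 in Huh-7, 335 ± 31.4 in A-549, 115 ± 1.27 in MV-3 and 11.1 ± 6.84 in ES-2. The part of other cell types in the results below was not tested.

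Among the 3p strands, miR-454-3p was by far the most abundant member in every library. Its normalised CPM, in replicate order, was 1181 and 1178 in Huh-7, 1298 and 1463 in MV-3, 1408 and 1319 in ES-2 and 787 and 951 in A-549. Both A-549 libraries lay below the other 6, and the values of ES-2 and MV-3 overlapped. The line means differed only 1.59-fold from the highest to the lowest, the smallest span of the 7 members. In rank among all names it stood at 52 in Huh-7, 54 in MV-3, 56 in ES-2 and 71 in A-549. By library CPM the means were 1968 ± 54.6 in Huh-7, 1607 ± 160 in MV-3, 1169 ± 70.7 in ES-2 and 522 ± 60.4 in A-549, a span of 3.77-fold. A-549 was lowest on both scales, while Huh-7 moved from the third to the first place.

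For miR-130a-3p, the strand from chromosome 11, the lines differed most. Normalised CPM was 94.6 and 115 in Huh-7, 55.5 and 51.6 in MV-3, 13.2 and 11.8 in ES-2 and 18.5 and 13.1 in A-549. Both MV-3 and Huh-7 stood clear of the other lines, whereas the libraries of A-549 and ES-2 overlapped. The Huh-7 mean of 105 ± 14.7 exceeded the ES-2 mean of 12.5 ± 0.974 by 8.40-fold. By library CPM, Huh-7 had 176 ± 29.8 and A-549, then the lowest line, 9.5 ± 2.46, a span of 18.5-fold. The levels in ES-2 and A-549 rested on 16 to 30 reads per library.

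miR-130b-3p shared the order of miR-130a-3p at the top, with a smaller span and wider replicates. Normalised CPM was 171 and 104 in Huh-7, 83.6 and 88.4 in MV-3, 60.4 and 64.7 in ES-2 and 62.8 and 36.8 in A-549. The A-549 libraries overlapped those of ES-2. The means ran from 138 ± 47.6 in Huh-7 to 49.8 ± 18.4 in A-549, a span of 2.76-fold, or 7.61-fold by library CPM. In Huh-7, 608 reads in replicate 1 and 304 in replicate 2 differed 1.65-fold after scaling, more than counting error allows (exact binomial test, two-sided, adjusted p = 1.14e-11 over 28 replicate pairs). A-549 replicates of this strand differed 1.71-fold by the same exact test (adjusted p = 0.0121). By this test replicates of other members also differed beyond counting error. Ratios were smaller for miR-454-3p in A-549 (1.21-fold, adjusted p = 4.8e-05) and MV-3 (1.13-fold, 0.000919), miR-130b-5p in ES-2 (1.16-fold, 0.00148) and miR-130a-3p in Huh-7 (1.22-fold, 0.0424). The ratio was larger for the replicates of miR-454-5p in ES-2, which are given below.

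miR-301a-3p, encoded in the same SKA2 gene as miR-454-3p, was the least abundant 3p member except in ES-2, where miR-130a-3p was lower. Normalised CPM was 13.5 and 13.3 in Huh-7, 24.4 and 32.4 in MV-3, 20.1 and 25.7 in ES-2 and 14.8 and 4.91 in A-549. By normalised CPM, MV-3 and ES-2 overlapped, as did Huh-7 and A-549. In A-549 the values came from 24 and 6 reads. The span of the means was 2.89-fold, from 28.4 ± 5.62 in MV-3 to 9.84 ± 6.98 in A-549. By library CPM the span was 5.56-fold and none of the lines overlapped. The means were then 33.1 ± 7.05 in MV-3, 22.4 ± 0.434 in Huh-7, 19.6 ± 3.08 in ES-2 and 5.95 ± 4.30 in A-549.

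Of the 5p strands, miR-130b-5p dominated. Its normalised CPM was 1091 and 1059 in Huh-7, 662 and 624 in MV-3, 826 and 713 in ES-2 and 310.2 and 317 in A-549. None of the lines overlapped with another for this strand. Means fell from 1075 ± 22.7 in Huh-7 over 769.7 ± 79.7 in ES-2 and 643 ± 26.7 in MV-3 to 314 ± 5.01 in A-549, a span of 3.43-fold. By library CPM the span was 9.51-fold, from 1793 ± 15.5 in Huh-7 to 189 ± 0.335 in A-549, and MV-3 with 748 ± 19.6 then stood above ES-2 with 660.4 ± 78.0. It ranked at 56 in Huh-7 and at 113 in A-549.

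miR-301a-5p was found at levels near those of its 3p partner, except in A-549 replicate 2. Normalised CPM was 8.73 and 10.9 in Huh-7, 20.0 and 26.3 in MV-3, 15.3 and 17.5 in ES-2 and 9.85 and 12.3 in A-549. By normalised CPM, Huh-7 and A-549 overlapped, and MV-3 lay above the other lines. For miR-454-5p, normalised CPM was 38.6 and 34.2 in Huh-7, 74.8 and 65.3 in MV-3, 26.4 and 48.3 in ES-2 and 22.2 and 25.4 in A-549. MV-3 was again highest in both libraries and A-549 lowest, and the wide ES-2 replicates enclosed those of Huh-7. Those ES-2 replicates differed 1.83-fold (exact binomial test, adjusted p = 0.00807 over 28 pairs). Spans of the means were 2.36-fold for miR-301a-5p and 2.95-fold for miR-454-5p. By library CPM they were 4.07-fold and 5.71-fold, with MV-3 highest and A-549 lowest for both strands. For miR-301a-5p, Huh-7 with 16.4 ± 3.08 library CPM then stood clear of A-549 with 6.64 ± 0.910. For miR-454-5p, Huh-7 with 60.6 ± 3.42 library CPM stood clear of ES-2 with 31.9 ± 12.8.

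**Figure D1:**
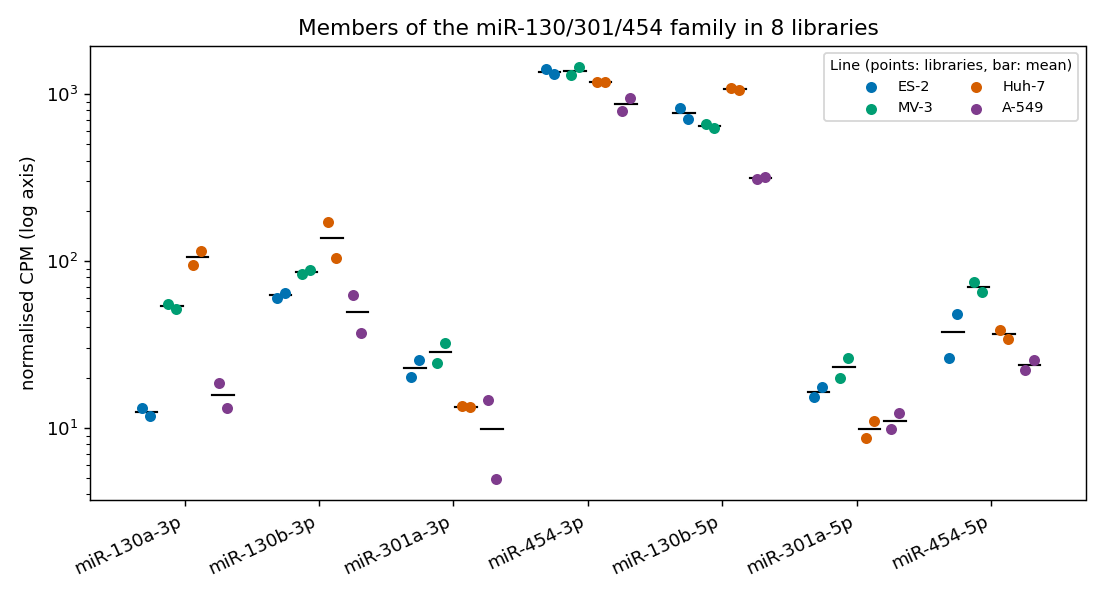
Normalised CPM of each member (vertical axis, log scale) in the 8 libraries, grouped by line, with 1 point per library and a bar at the mean of the 2 libraries. miR-454-3p and miR-130b-5p lie at 310.2 normalised CPM or above in every library, and the other 5 members at 171 or below.

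The make-up of the family was compared between lines as shares of its own reads, which do not depend on the scaling of a library. miR-454-3p took 46.1% ± 0.985 of the reads of all 7 members in Huh-7, 60.4% ± 2.62 in MV-3, 59.7% ± 0.377 in ES-2 and 67.1% ± 4.0 in A-549 (SD, n = 2). miR-130b-5p took 42.0% ± 0.0940 in Huh-7, 28.2% ± 2.33 in MV-3, 33.6% ± 1.73 in ES-2 and 24.3% ± 1.41 in A-549. Huh-7 thus had the lowest share of the former and the highest share of the latter, without overlap with the other lines. Among the 3p members alone, which share the seed, miR-454-3p made up 82.2% ± 1.86 in Huh-7, 89.1% ± 0.462 in MV-3, 93.3% ± 0.670 in ES-2 and 91.8% ± 3.84 in A-549. The share of miR-130a-3p in them rose from 0.855% ± 0.0336 in ES-2 over 1.70% ± 0.558 in A-549 and 3.48% ± 0.455 in MV-3 to 7.33% ± 1.21 in Huh-7, given as means without a test. The share of miR-130b-3p was 9.54% ± 3.08 in Huh-7, 5.56% ± 0.225 in MV-3, 4.29% ± 0.375 in ES-2 and 5.38% ± 2.44 in A-549.

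**Figure D2:**
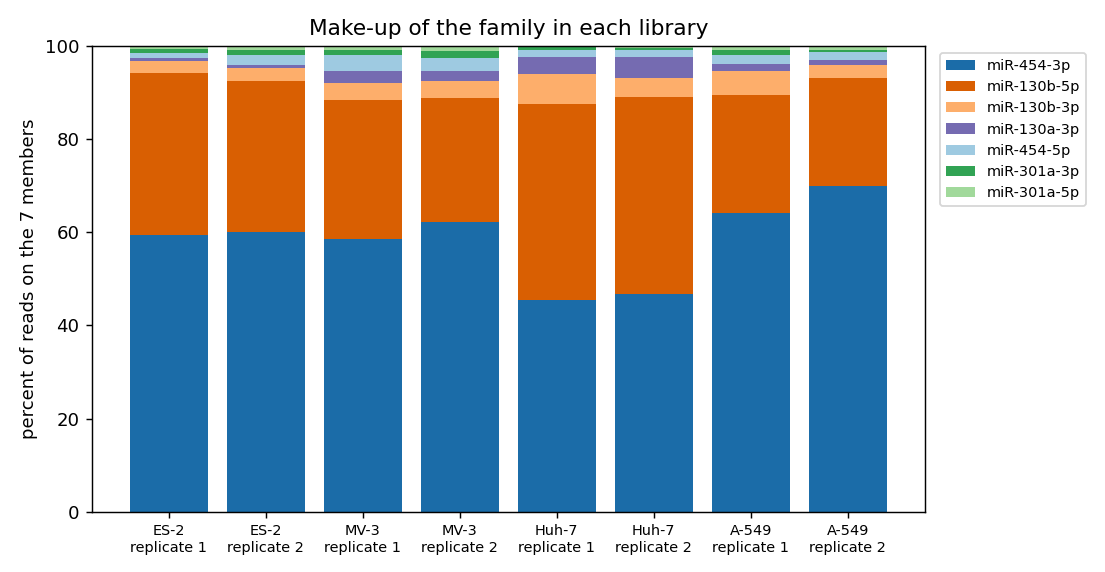
Share of the reads of all 7 members (vertical axis, percent, from 0) held by each member in each of the 8 libraries, as stacked bars. miR-454-3p and miR-130b-5p together fill most of each bar, and the share of miR-130b-5p is highest in the 2 Huh-7 libraries.

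Because 3p members with the same seed can bind the same sites, their levels were also summed. The sum was 1435 ± 35.4 normalised CPM in Huh-7, 1549 ± 123 in MV-3, 1462 ± 56.6 in ES-2 and 945 ± 86.7 in A-549. On this scale Huh-7, ES-2 and MV-3 lay within the spread of their replicates, and A-549 was below them. By library CPM, the sum was 2394 ± 12.1 in Huh-7, 1803 ± 170 in MV-3, 1253 ± 66.8 in ES-2 and 567 ± 42.0 in A-549, and all 4 lines stood apart. This amounted to between 0.0567% of miRNA reads for A-549 and 0.239% for Huh-7. The log2 ratio of the sums for Huh-7 and ES-2 was -0.03 by normalised CPM and 0.93 by library CPM, and for Huh-7 and MV-3 it was -0.11 and 0.41. The direction of both pairs with Huh-7 thus changed with the scaling. For MV-3 and ES-2 the ratio was 0.08 by normalised CPM and 0.52 by library CPM, and A-549 was lowest on both scales. With names of known sequence grouped by their seed, and miR-130a-3p counted with its family without a sequence, AGUGCAA ranked at 42 in A-549 and at 31 in each of the other lines, among 605 to 773 seeds with a read. The 5p members summed to 1121 ± 24.3 normalised CPM in Huh-7, 736 ± 28.9 in MV-3, 823 ± 62.7 in ES-2 and 349 ± 8.98 in A-549. They do not share a seed, and this sum only describes their amount.

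**Figure D3:**
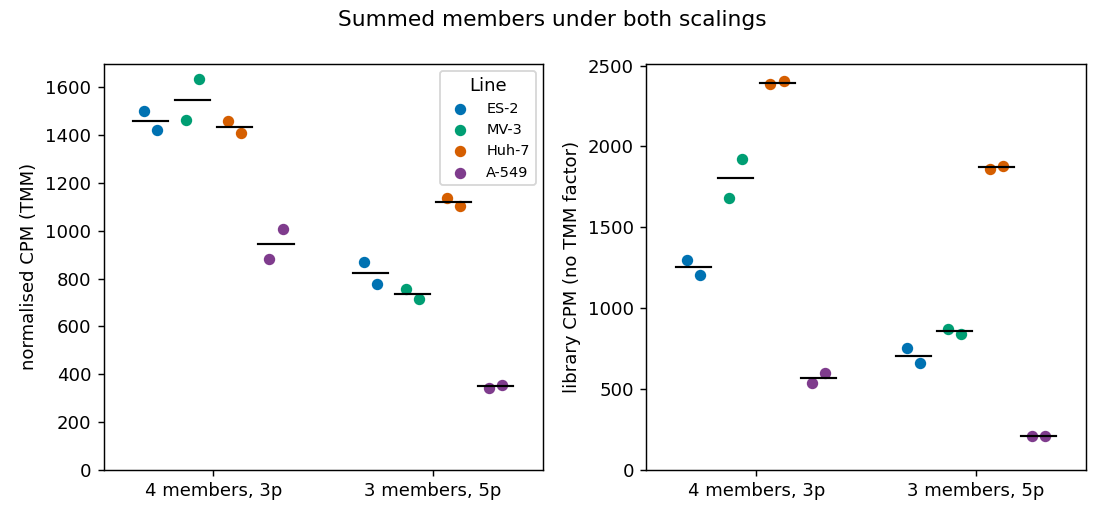
Summed level of the 4 members of the 3p strand and of the 3 members of the 5p strand in each library, as normalised CPM (left) and as library CPM (right), with 1 point per library and a bar at the mean of the 2 libraries of a line. A-549 is lowest in both panels, and for the 3p sum Huh-7 is highest only without the TMM factor.

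To find members that differed between lines, limma was fitted to log2(normalised CPM + 1) of all 528 miRNAs, which understates the change of low members, and p-values were adjusted over all of them. Among the 4 lines, 3 of 7 members were called at an adjusted p below 0.01, compared with 68.2% of all miRNAs tested. edgeR on the recovered reads called 70.3% of all miRNAs and the same 3 members. These were miR-130b-5p (adjusted p = 2.36e-05), miR-130a-3p (adjusted p = 0.000193) and miR-454-3p (adjusted p = 0.00388). Not called by limma were miR-454-5p (adjusted p = 0.0229), miR-130b-3p (adjusted p = 0.0245), miR-301a-5p (adjusted p = 0.0603) and miR-301a-3p (adjusted p = 0.0838). All pairs that involve the same line share its libraries, so that the 6 comparisons are not independent.

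Between Huh-7 and ES-2, which differed in 27.7% of miRNAs upward and 21.6% downward in Huh-7, 2 of 7 members were called, both higher in Huh-7. miR-130a-3p had a log2 fold change of 2.97 (SE 0.27, limma adjusted p = 0.00011), and miR-130b-5p of 0.48 (SE 0.09, adjusted p = 0.00371). The call of miR-130b-5p was lost with the size factors of DESeq2, known as RLE (adjusted p = 0.0208), without the filter (0.0143), in DESeq2 (0.0246), in a fit of the pair alone (0.0258) and without ES-2 replicate 2 (0.0128), Huh-7 replicate 1 (0.0255) or Huh-7 replicate 2 (0.0196). miR-130b-3p was at 1.08 (SE 0.33, adjusted p = 0.0281) and was not called. For miR-454-3p the difference was -0.21 with a 95% interval of -0.47 to 0.06, and by library size only it was 0.75 (limma adjusted p = 0.000902). The median over the members was 0.02, against 0.34 over all miRNAs tested.

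MV-3 and ES-2 were the pair with the fewest calls, with 11.6% of miRNAs higher and 14.2% lower in MV-3. Of the 7 members, miR-130a-3p was called, higher in MV-3 by a log2 fold change of 2.02 (SE 0.27, limma adjusted p = 0.00137). Its call was lost by a narrow margin without ES-2 replicate 2, MV-3 replicate 1 or MV-3 replicate 2, and in a fit of this pair alone, with adjusted p between 0.0102 and 0.0120. The difference of miR-454-3p was 0.02 with a 95% interval of -0.25 to 0.28. miR-454-5p was at 0.95 (SE 0.32, adjusted p = 0.0653) and miR-130b-5p at -0.26 (SE 0.09, adjusted p = 0.0740). The median over the members was 0.45, against 0 over all miRNAs tested.

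Huh-7 exceeded MV-3 in 1 of 7 members, where 26.9% of all miRNAs were higher and 20.1% lower in Huh-7. This was miR-130b-5p with a log2 fold change of 0.74 (SE 0.09, limma adjusted p = 0.000502), a call that held in all 18 alternatives. miR-130a-3p at 0.95 (SE 0.27, adjusted p = 0.0226) and miR-301a-5p at -1.15 (SE 0.35, adjusted p = 0.0282) were not called. miR-454-3p was at -0.22 with a 95% interval of -0.49 to 0.04.

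In A-549 the called members were lower, in each of the 3 comparisons. Against ES-2, where 17.6% of all miRNAs were lower and 23.7% higher, 2 of 7 members were called. miR-130b-5p had a log2 fold change of -1.29 (SE 0.09, limma adjusted p = 4.65e-05) and miR-454-3p of -0.65 (SE 0.11, adjusted p = 0.00256). The call of miR-454-3p was lost in a fit of the pair alone (adjusted p = 0.0302) and without either ES-2 library, either Huh-7 library or A-549 replicate 1 (0.0115 to 0.0236). miR-130a-3p was at 0.30 (SE 0.27), and at -0.18 by library size only.

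Against MV-3, where 15.5% of all miRNAs were lower and 24.1% higher in A-549, 4 of 7 members were called, the most of any pair. These were miR-130b-5p with a log2 fold change of -1.03 (SE 0.09, limma adjusted p = 0.000153), miR-130a-3p with -1.72 (SE 0.27, adjusted p = 0.00210), miR-454-3p with -0.67 (SE 0.11, adjusted p = 0.00250) and miR-454-5p with -1.52 (SE 0.32, adjusted p = 0.00802). Their calls were not equally firm. The 18 alternatives include the looser threshold of 0.05, at which every call made at 0.01 holds by definition. That of miR-130b-5p held in all 18 alternatives, that of miR-130a-3p in 15, that of miR-454-3p in 12 and that of miR-454-5p in 7. In a fit of the pair alone the limma adjusted p was 0.0215 for miR-130a-3p, 0.0338 for miR-454-3p and 0.0128 for miR-454-5p. With RLE factors it was 0.0101 for miR-454-3p and 0.0106 for miR-454-5p. The call of miR-454-5p was also lost without the filter (0.0141) and with a pseudocount of 0.1 (0.0110). Without MV-3 replicate 1 the adjusted p of miR-130a-3p was 0.0154, and without MV-3 replicate 2 it was 0.0122. For miR-454-3p the call was lost without MV-3 replicate 2 (0.0192), either Huh-7 library (0.0107 and 0.0108) or A-549 replicate 1 (0.0119). For miR-454-5p it was lost without either library of MV-3, Huh-7 or A-549 and with a replicate block (0.0130), with adjusted p up to 0.0497. The median over the members was -1.03, against 0.08 over all miRNAs tested.

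Against Huh-7, where 23.7% of all miRNAs were lower and 28.6% higher in A-549, 3 of 7 members were called. miR-130b-5p had a log2 fold change of -1.77 (SE 0.09, limma adjusted p = 7.57e-06), miR-130a-3p of -2.67 (SE 0.27, adjusted p = 0.000197) and miR-130b-3p of -1.45 (SE 0.33, adjusted p = 0.00792). The first 2 held in all 18 alternatives, whereas the call of miR-130b-3p held in 8. It was lost without the filter (adjusted p = 0.0161), with a pseudocount of 0.1 (0.0119), in a fit of the pair alone (0.0566) and without any single library except A-549 replicate 1, with the highest adjusted p of 0.0573 without Huh-7 replicate 1. For miR-454-3p the value was -0.45 (SE 0.11), with adjusted p of 0.0115 in limma and 0.00959 in edgeR. miR-301a-5p was at 0.16 (SE 0.35), and at -1.19 by library size only.

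Scaling by library size only shifted the median fold change of the tested miRNAs, on the log2 scale, by between -1.28 for A-549 against Huh-7 and 0.74 for Huh-7 against ES-2. It also changed how many miRNAs were called in each direction. In A-549 against MV-3, 15.5% of all miRNAs were then higher and 30.1% lower, and all 7 members were called lower. In A-549 against Huh-7 it was 21% higher and 46.2% lower, with 5 members lower, and in A-549 against ES-2 21.2% higher and 26.5% lower, with 2 members lower. Huh-7 against ES-2 had 43.0% higher and 16.5% lower, with 4 members higher, Huh-7 against MV-3 had 35.4% and 17.4%, with 2 members higher, and MV-3 against ES-2 had 16.1% and 11%, with 1 member higher. A scaling shifts the miRNAs of a pair together, but not by equal amounts on the scale used. The distance of a member from the median of the tested miRNAs thus also depends on the scaling, and is given as a description only. For Huh-7 against ES-2, miR-454-3p lay 0.54 below the median with the TMM factor (member minus median -0.54) and 0.32 below it without (-0.32), although its own fold change turned from -0.21 to 0.75. In the same pair, miR-130b-5p lay above the median by 0.15 and 0.37, with a fold change of its own of 0.48 and 1.44. miR-130a-3p lay above it by 2.63 and 2.83. For A-549 against MV-3, all 7 members lay below the median, from -0.76 for miR-454-3p to -1.80 for miR-130a-3p with the TMM factor and from -1.10 to -2.09 for the same members without.

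**Figure D4:**
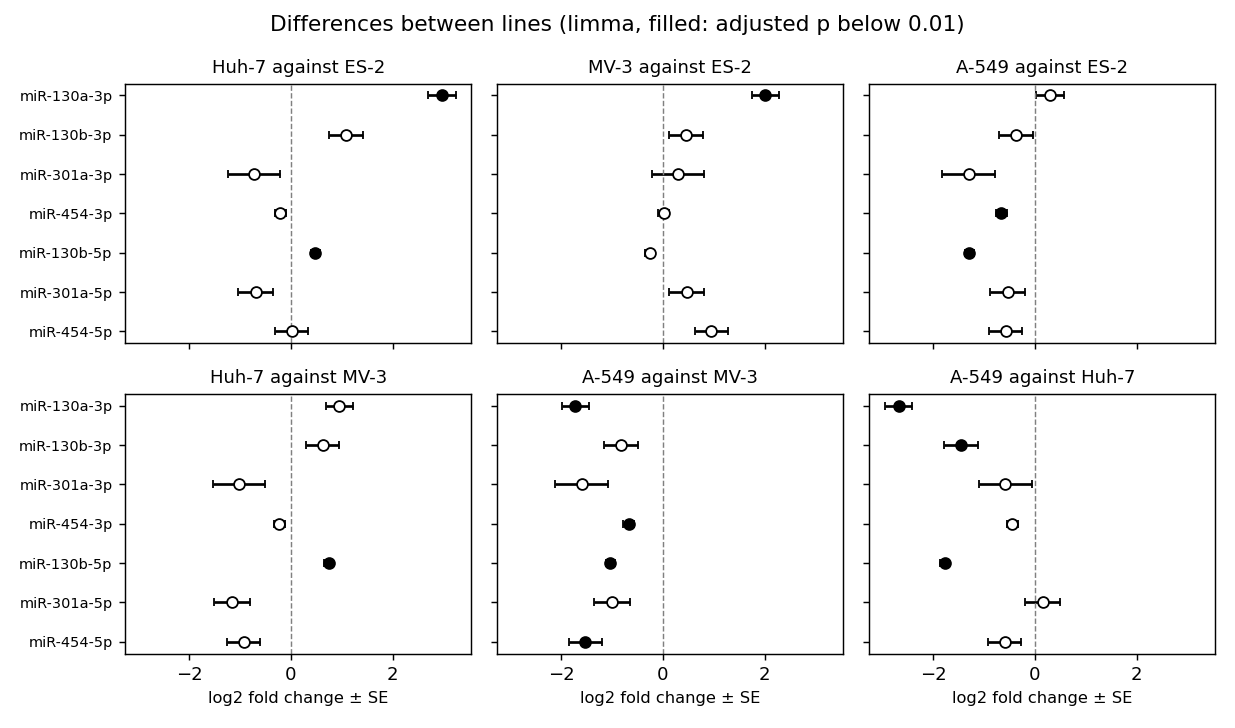
Log2 fold change of each member in each of the 6 pairs of lines (horizontal axis), with bars of 1 SE from limma on either side and filled symbols for an adjusted p below 0.01. miR-130a-3p reaches 2.97 in Huh-7 against ES-2, and all filled symbols in comparisons of A-549 lie below 0.

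Strands of a hairpin arise from the same precursor. Their ratio within a library is free of scaling, as is any ratio of reads from the same library. For miR-130b the 5p strand exceeded the 3p strand in all 8 libraries, by 8.05-fold in Huh-7, 7.45-fold in MV-3, 12.2-fold in ES-2 and 6.48-fold in A-549. For miR-454 the 3p strand was in excess in all 8, by 32.4-fold in Huh-7, 19.6-fold in MV-3, 37.8-fold in ES-2 and 36.0-fold in A-549. For miR-301a the 3p to 5p read ratio was 0.400 in A-549 replicate 2, from 6 and 15 reads. It lay between 1.22 and 1.55 in the other libraries. The strand ratios did not pass an exact permutation test of differences between lines. It compared an F statistic, which has no direction, over the 105 ways to divide 8 libraries into 4 pairs. The adjusted p was 0.460 for miR-130b, 0.8 for miR-301a and 0.405 for miR-454, over 5 ratios tested. With 105 ways, a ratio can pass only if the true lines give nearly the highest F. The test therefore does not show that the strand ratios were alike between lines. Line means of the log2 ratio differed by 0.92 for miR-130b, 0.81 for miR-301a and 0.95 for miR-454. The median of this difference over 139 hairpins with both strands tested was 1.57. These hairpins were not matched for depth, and some, such as miR-142, had 0 reads of a strand in some libraries. Of these hairpins, 44 had more 3p reads and 48 more 5p reads in all 8 libraries, and 47 were mixed. A higher 3p to 5p ratio than that of miR-454 was found in 13 of them, and a lower ratio than that of miR-130b in 41. The seed-bearing 3p strand thus had more reads than the 5p strand for miR-454 and fewer for miR-130b. Reads of different sequences are not calibrated against each other, so the ratio of the molecules was not measured.

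**Figure D5:**
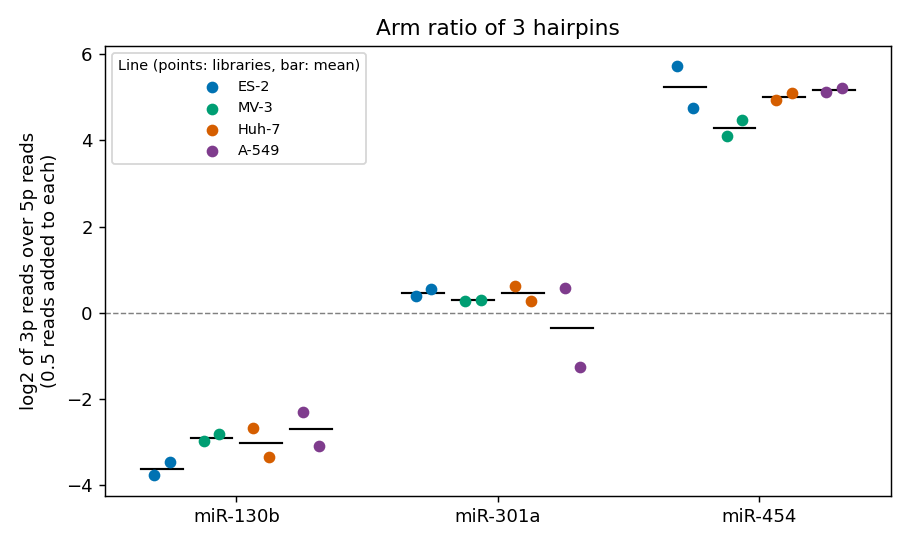
Log2 ratio of 3p to 5p reads within each library (vertical axis) for miR-130b, miR-301a and miR-454, with 1 point per library and the lines side by side. Points of miR-454 lie above 4 and points of miR-130b below -2 in all 8 libraries, and those of miR-301a lie between -1.25 and 0.62.

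miR-301a and miR-454 are both encoded in introns of SKA2, and their ratio was therefore followed as well. Reads of miR-454-3p exceeded those of miR-301a-3p by 86.9-fold in Huh-7, 48.4-fold in MV-3, 59.2-fold in ES-2 and 96.7-fold in A-549. Differences of this ratio between lines did not pass the test (exact permutation test, p = 0.448, adjusted p = 0.560), and the A-549 value rests on 24 and 6 reads of miR-301a-3p, with an excess of 53.3-fold in replicate 1 and 193.8-fold in replicate 2. The ratio of miR-130b-3p to miR-130a-3p, from different chromosomes, was 4.91 in ES-2, 3.04 in A-549, 1.60 in MV-3 and 1.28 in Huh-7. By the exact permutation test p was 0.0286, and 0.143 after adjustment over the 5 ratios, so that it did not pass the threshold of 0.05. Higher ratios were seen in the ES-2 and A-549 libraries, all 4 of which lay above the 4 libraries of MV-3 and Huh-7.

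Other strands and seed sharers of the family had few or no reads. miR-130a-5p, the partner strand of miR-130a-3p, had 1 and 8 reads in ES-2, 0 and 8 in MV-3, 43 and 24 in Huh-7 and 0 in both A-549 libraries. It was tested and not called in any pair, with the lowest limma adjusted p of 0.0121 for A-549 and Huh-7. miR-301b-3p, the neighbour of miR-130b shown above, had at most 13 reads in a library, and miR-301b-5p at most 12. miR-3666 and miR-4295 had 0 reads in all 8 libraries, which allows at most 3 reads each. Adding these seed sharers changed the summed 3p level of Huh-7 from 1435 to 1439 normalised CPM.

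miRNAs whose seed is shifted by 1 base against that of the family can bind part of its sites, and 5 of them were followed as a list. They were miR-19a-3p, miR-19b-3p, miR-148a-3p, miR-148b-3p and miR-152-3p. Members of the miR-19 group belong to the oncogenic miR-17/92 cluster. In A-549 against Huh-7, 4 of 5 were lower and 1 was higher, beside 23.7% and 28.6% of all miRNAs. In A-549 against ES-2, 2 of 5 were lower, beside 17.6% of all miRNAs, namely miR-19a-3p by -1.52 (SE 0.24, limma adjusted p = 0.00185) and miR-19b-3p by -1.61 (SE 0.17, adjusted p = 0.000331). In A-549 against MV-3, 2 of 5 were lower, beside 15.5% of all. In MV-3 against ES-2, 1 was higher and 1 lower, beside 11.6% and 14.2%, as in Huh-7 against MV-3, beside 26.9% and 20.1%. In Huh-7 against ES-2, 2 were higher and 1 lower, beside 27.7% and 21.6%. miR-152-3p went against the others in A-549 and Huh-7, with 90.6 ± 13.2 normalised CPM in Huh-7 and 259 ± 11.5 in A-549. miR-148b-3p, with 1756 ± 98.7 normalised CPM in Huh-7, 1609 ± 60.3 in MV-3, 1125 ± 1.66 in ES-2 and 1314 ± 102 in A-549, had levels of the same order as miR-454-3p.

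The miRNAs with profiles most like each 3p member were sought among 179 miRNAs that averaged 100 normalised CPM or more, by Pearson's r of log2(normalised CPM + 1) over the 8 libraries. The libraries are pairs from 4 lines, so these coefficients describe 4 points more than 8 and are given without a test. For miR-130a-3p they were miR-1269a (r = 0.973), miR-421 (0.958) and miR-148b-3p (0.922). For miR-130b-3p they were miR-128-3p (0.898), miR-1269a (0.883) and miR-191-5p (0.873). For miR-454-3p they were miR-10b-5p (0.913), miR-30e-3p (0.888) and miR-17-5p (0.823). For miR-301a-3p they were miR-199a-5p (0.838), miR-199b-3p (0.822) and miR-199a-3p (0.810). Within the family, r was 0.846 for miR-130a-3p and miR-130b-3p, which lie on different chromosomes, and 0.670 for miR-301a-3p and miR-454-3p, which share a host gene. Between the strands of a hairpin it was 0.759 for miR-130b, 0.680 for miR-454 and 0.679 for miR-301a. No coefficient was computed on library CPM, where the order of the lines differs for some members. miR-301a-3p also had as few as 6 reads in a library.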

How the data were processed

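Per the study's methods, adapters were trimmed with cutadapt 1.14, reads were aligned to hg38 with Bowtie2 2.3.2, and reads on mature miRNAs were counted with featureCounts 1.5.3; versions are from the submitters' processing notes. Handling of multi-mapping reads, strand use and random adapter bases are not given in the sources used here. The authors deposited a normalised signal, reads scaled with the TMM factors of edgeR 3.18.1. In each library 100% of values were whole reads times a constant (tolerance 0.001), and TMM factors recomputed from these reads differed by at most 1.1e-15. The 2813 entries were summed by name. Library totals were 1173902 to 2670030 reads.

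limma 3.58.1 (R 4.3.3) was fitted to log2(normalised CPM + 1) with 1 term per line, the trend option, 8 libraries and 4 residual degrees of freedom, after filterByExpr on recovered reads. P-values were adjusted by Benjamini-Hochberg over 528 miRNAs, with calls below 0.01. edgeR 4.0.16 (quasi-likelihood, recovered reads) called 371 miRNAs among the 4 lines, against 360 for limma. Other alternatives were RLE factors, library size only, no filter, at least 10 library CPM in 2 libraries, DESeq2 1.42.0, a pseudocount of 0.1, an adjusted p below 0.05, a replicate block, the pair alone and leaving out each library. The last kept the deposited scaling and the 528 miRNAs, and the lone library was assumed to vary like the other lines. The threshold of 0.05 keeps every call made at 0.01 by definition. Within-library log2 ratios, with 0.5 reads added to each strand, were tested by exact permutation (scipy 1.17.1). Scripts were tested on simulated data. Hairpins came from GENCODE and mature sequences from RefSeq. The replicates are biological per the study; the labels do not say how they were separated, so p-values measure the spread between these libraries.

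Named were the 7 members, the other strands and seed sharers, the 5 miRNAs with a shifted seed, and for each 3p member the 3 miRNAs with the highest r. Members and lists were chosen with earlier results of these data known.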

Additional observations from a re-analysis of the deposited data

How the results depend on the processing

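Every value that changed sign belonged to a member and a pair without a call in the reported fit. By library size only, log2 fold changes of Huh-7 against ES-2 turned to 0.19 for miR-301a-3p, 0.75 for miR-454-3p and 0.21 for miR-301a-5p, that of miR-454-3p in Huh-7 against MV-3 to 0.30, that of miR-130b-5p in MV-3 against ES-2 to 0.18, that of miR-130a-3p in A-549 against ES-2 to -0.18 and that of miR-301a-5p in A-549 against Huh-7 to -1.19. This setting moved the median over all tested miRNAs in the same direction each time. miR-454-5p in Huh-7 against ES-2 was at -0.10 with RLE factors, -0.050 in edgeR and -0.18 in DESeq2, and ranged from -0.40 to 0.45 when single libraries were left out. miR-454-3p in MV-3 against ES-2 was at -0.014 with RLE factors and -0.0091 in DESeq2, and ranged from -0.070 to 0.10 without single libraries. Leaving out single libraries also turned miR-130b-3p in A-549 against ES-2 (-0.75 to 0.0061) and miR-301a-3p in A-549 against Huh-7 (-1.29 to 0.13), in both cases without A-549 replicate 2.

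The number of members called is given with the share of all tested miRNAs called in the same direction under the same setting. Among the 4 lines it went from 3 to 5 by library size only (79.2% of all called) and at an adjusted p below 0.05 (81.6%). It fell to 2 with RLE factors (68.6%) and without the filter (28.9%), and could also fall when a single library was left out. For Huh-7 against ES-2, members called higher went from 2 to 4 by library size only (43.0% of all) and to 1 with RLE factors (25.4%), without the filter (11.5%), in DESeq2 (22%) and in a fit of the pair alone (21.8%), and were 1 to 2 without single libraries (18.6% to 25.8%). For MV-3 against ES-2, the call of miR-130a-3p was lost in a fit of the pair alone, leaving 0 calls (5.49% of all higher), and 0 to 1 were made without single libraries (7.95% to 9.85%). For A-549 against ES-2, 1 member was called lower in a fit of the pair alone (9.85%) and 1 to 2 without single libraries (11.9% to 14.6%). For Huh-7 against MV-3, 2 were called higher by library size only (35.4%), and at an adjusted p below 0.05 4 were called, 2 higher (33.3%) and 2 lower (24.1%). For A-549 against MV-3, all 7 were called lower by library size only (30.1%), 2 with RLE factors (13.8%), 1 in a fit of the pair alone (10.6%) and 1 to 4 without single libraries (11% to 14.2%). For A-549 against Huh-7, 5 were called lower by library size only (46.2%). The cause of these changes was not tested. A fit of a pair or without a library also rests on fewer libraries.

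The summed 3p level moved most by library size only, with log2 ratios of 0.93 for Huh-7 and ES-2, 0.52 for MV-3 and ES-2, -1.14 for A-549 and ES-2, 0.41 for Huh-7 and MV-3, -1.67 for A-549 and MV-3, and -2.08 for A-549 and Huh-7. With RLE factors it was -0.15 for Huh-7 and ES-2 and -0.37 for A-549 and Huh-7. With the 5p members added it was 0.16 for Huh-7 and ES-2, 0.16 for Huh-7 and MV-3, -0.82 for A-549 and ES-2 and -0.98 for A-549 and Huh-7. Ratios within libraries were also tested by exact permutation with single libraries left out, and p was adjusted over the 5 ratios. The adjusted p was 0.0476 to 0.75 for the miR-454 strand ratio and 0.0476 to 0.286 for miR-130b-3p to miR-130a-3p. The lowest values came without ES-2 replicate 2 and Huh-7 replicate 1, respectively, where these ratios passed the threshold of 0.05. With all 8 libraries neither ratio passed. Each of these tests left a line with a lone library, so no conclusion was drawn from them.

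Replicate numbers are shared between lines, but nothing in the labels says that they mark a common batch. Deviations of replicate 1 from the line means correlated between lines with r from -0.05 to 0.23, so the numbers were not taken to pair the libraries. With a replicate block, the counts of members called were 3 among the 4 lines and 3 for A-549 against MV-3, where miR-454-5p was no longer called (log2 fold change -1.52, limma adjusted p = 0.0130), and no other call changed. Depth limits miR-301a-3p and miR-301a-5p most, with 6 to 59 and 15 to 48 reads per library.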
